A study of Mus musculus with 13 samples.

Results

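The libraries described here are the negative control pull-downs (NEG) and the input RNA (IPT) of a study of dAKAP1, a protein of the outer mitochondrial membrane that anchors protein kinase A and carries RNA-binding KH and Tudor domains (KHT). They are 8 of the 13 libraries of the series, chosen by their titles: NEG 1, 3, 4 and 5, and IPT 1 to 4. A further control, NEG 2, is listed at 0 for every gene and was dropped. The other 4 libraries, KHT pull-downs, entered the gene-level fit for its estimate of spread and are not described.

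All RNA came from MA-10, a mouse Leydig cell line, grown in RPMI medium with 10% horse serum and PenStrep. Total RNA was mixed with a purified protein and recovered on beads carrying an antibody to MBP, the maltose-binding protein tag. Per the labels, the bait of a NEG library was empty antiMBP beads, MBP, or KHT(GDDG). No label says which of these a given NEG library had, so each NEG library is described by itself as well as within the group. IPT is the RNA from before the pull-down. MA-10 is 1 line, the RNA was purified before the proteins were added, and nothing in the labels says that libraries of a group came from separate cultures, so p-values measure the spread between these libraries only. The libraries were made with a total RNA kit that depletes ribosomal RNA, although another label names polyA RNA.

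A pull-down without a working bait recovers RNA that sticks to beads, tag or antibody, and what is recovered sets the background against which binding is called. Ribosomal RNA makes up most of the RNA of a cell, and sequence copies of it lie inside several annotated mouse genes, which can then collect its reads. Ribosomal protein messenger RNAs have many processed pseudogenes, intron-less copies scattered over the genome, and reads of a gene and its copies are hard to tell apart.

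Of 235 microRNA loci in the file 3 were tested, and the sequences of the 2 called higher in NEG than in IPT are shown, since they are the members of that class that the comparison turns on. Mir6236 lies at chr9:110281287-110281409 inside the span of the long noncoding RNA gene Gm39429, and Mir6240 lies at chr5:114851948-114852064, where RefSeq has no other gene (both from RefSeq, GRCm38.p6, plus strand). In the mature forms, capitals mark the seed, bases 2 to 8. In the hairpin, capitals mark the mature form.
mmu-miR-6236: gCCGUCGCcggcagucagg
mmu-miR-6240: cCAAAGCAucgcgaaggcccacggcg
Mir6240 hairpin: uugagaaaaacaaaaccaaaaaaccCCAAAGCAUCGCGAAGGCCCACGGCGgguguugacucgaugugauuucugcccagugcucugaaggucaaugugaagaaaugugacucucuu
The seeds of the mature forms differ, so they make no seed family. Counts of a locus in libraries of this kind are reads from its span and not measurements of a mature microRNA.

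NEG libraries held 1162178 to 1618998 estimated counts and IPT libraries 2487679 to 3085423. In NEG, 9 features each held at least 0.5% of the pooled counts. They are called dominant here, and their own shares are a description, because the NEG libraries chose them. Outside them, NEG libraries held 31318, 39301, 34633 and 49062 counts (NEG 1, 3, 4 and 5), and IPT libraries 1542713 to 2237374. A gene with no read among the NEG libraries is thus measured far less deeply than the same gene in IPT.

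The dominant features took 98.1%, 96.6%, 97.7% and 96.0% of the counts in NEG 1, 3, 4 and 5. In IPT 1 to 4 they took 28.9%, 36.8%, 38.0% and 26.7%. All 4 NEG libraries lay far above all 4 IPT libraries, and the 4 NEG values lay close together.

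CT010467.1, an unnamed clone-based gene model with no entry in the RefSeq table, was the largest, with 50.5%, 44.9%, 42.5% and 42.2% of NEG counts. Its share in IPT was 13.2%, 16.7%, 15.2% and 11.5%, giving means of 45.0% ± 3.86 and 14.2% ± 2.27 (SD, n = 4 each). Lars2, whose product charges the leucine tRNA of mitochondria, was the second, at chr9:123366927-123462675. It held 31.2%, 31.9%, 38.1% and 35.7% of NEG counts and 9.87%, 13.3%, 12.4% and 9.17% of IPT counts. These features alone accounted for most of what a control pull-down returned.

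The other dominant features were AY036118, Gm15564, AA474408, Mir6236, Gm19220, Gm26822 and the mitochondrial ribosomal RNA mt-Rnr2, each with a smaller share, and 3 of them kept close to Lars2. Mir6236 held 2.45%, 2.52%, 3.18% and 2.96% of NEG counts against 0.705% to 1.01% in IPT. The count of Mir6236 per Lars2 count was 0.0810 ± 0.00249 for NEG and 0.0759 ± 0.00759 for IPT (SD over 4 libraries), and the groups overlapped. The same held for AA474408 (0.0984 ± 0.00353 and 0.101 ± 0.00562) and for Gm15564, a noncoding gene overlapping Parp9 and Kpna1 on chromosome 16 (0.106 ± 0.00298 and 0.108 ± 0.0116). AY036118, a noncoding gene on chromosome 17 whose span overlaps the ribosomal RNA pseudogene Rn18s-rs5, held 3.92%, 5.60%, 3.99% and 4.62% of NEG counts and 0.867%, 1.14%, 1.54% and 0.50% of IPT counts. So Mir6236, AA474408 and Gm15564 kept similar proportions to Lars2 in both groups, while AY036118 per Lars2 ranged from 0.105 to 0.176 in NEG and from 0.0546 to 0.124 in IPT. mt-Rnr2 per Lars2 was lower in NEG (0.0200 to 0.0257) than in IPT (0.0746 to 0.124), without overlap.

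Gm19220, annotated as a pseudogene at chr12:40893485-40894316 with no other RefSeq gene there, behaved differently. It held 2.06%, 3.17%, 1.005% and 1.70% of NEG counts and 0.838%, 0.667%, 3.33% and 1.13% of IPT counts, so the groups overlapped and IPT 3 was the highest library. Gm26822 and Grip2, the latter a scaffold protein gene of synapses on chromosome 6, broadly followed it across libraries. The libraries highest in Gm19220 within each group, NEG 3 and IPT 3, were also the highest in Gm26822, which was not so of CT010467.1 or Lars2. Gm26822 per Gm19220 was 0.377, 0.372, 0.345 and 0.460 in NEG and 0.281, 0.341, 0.312 and 0.306 in IPT. Grip2 per Gm19220 was 0.0734, 0.0704, 0.0670 and 0.0949 in NEG and 0.0522, 0.0642, 0.0572 and 0.0569 in IPT. Both ratios were higher in NEG without overlap, so the proportions were not fixed.

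Not every feature known for collecting ribosomal RNA reads was high in NEG. Of 11 such features in the file 10 were tested at the gene level, 6 were higher and 3 were lower, where 36.1% of all 10714 tested genes passed in either direction, 3.64% as higher and 32.5% as lower. The 6 were CT010467.1, Lars2, Mir6236, Gm15564 and AY036118, which are dominant and so chosen for their level in NEG, and Mir6240. Under total counts, a scaling described below, none of these 5 dominant features passed (edgeR adjusted p between 0.0927 and 0.159), and the call of AY036118 (edgeR adjusted p = 0.0258) was also lost without NEG 1 or any 1 of the IPT libraries (0.0538 to 0.0644). The lower features were Gm42418, Gm26917 and Gm37357. Gm26917 had 17, 115, 72 and 324 counts in NEG and 54419, 32407, 29540 and 40505 in IPT, with a log2 fold change of -2.88 (SE 0.82, edgeR adjusted p = 0.0133). Mir6240 had 41, 18, 46 and 44 counts in NEG and 26, 21, 29 and 23 in IPT (5.94, SE 0.57, edgeR adjusted p = 1.6e-06).

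**Figure D1:**
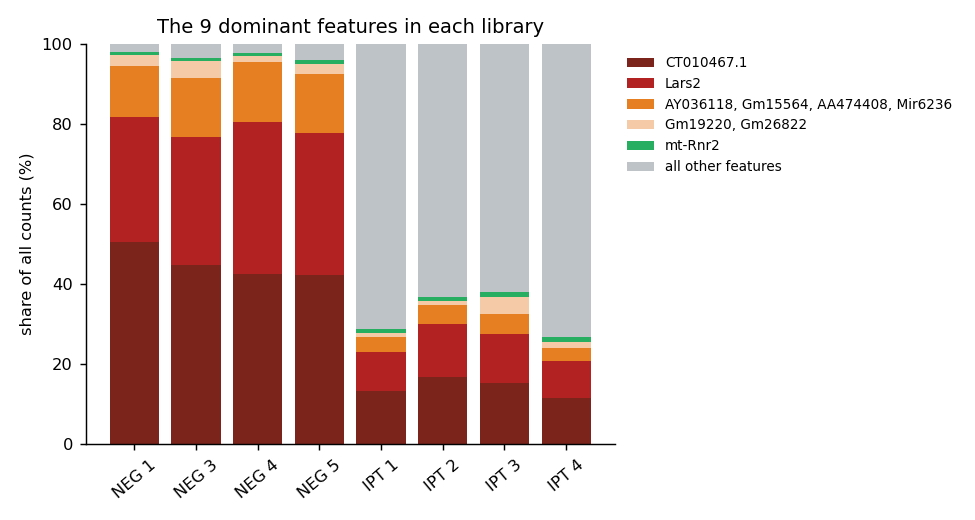
Share of all counts, in percent, held by the 9 dominant features in each NEG and IPT library (stacked bars, coloured by feature or group of features; grey is every other feature). The dominant features fill between 96.0% and 98.1% of each NEG library and between 26.7% and 38.0% of each IPT library, and the pale band of Gm19220 with Gm26822 is wide in NEG 3 and IPT 3.

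Which RNA classes made up the rest was asked of the counts outside the dominant features, with classes from RefSeq biotypes. Features annotated as protein-coding genes were still the largest class in NEG but took a smaller share than in IPT, and pseudogenes took a larger one. Each share was compared with a two-sided exact permutation test over the 70 ways to divide 8 libraries into 4 and 4. Its smallest possible p is 0.0286, or 0.0374 after Benjamini-Hochberg adjustment over the 17 measures tested, and the values below that reach it are those whose groups do not overlap.

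Protein-coding genes held 51.3%, 60.2%, 53.4% and 75.5% of the remaining counts in NEG 1, 3, 4 and 5, and 81.6% to 82.8% in IPT. The means were 60.1% ± 10.9 and 82.2% ± 0.530 (SD, n = 4 each; exact permutation test, adjusted p = 0.0374). NEG 5 lay nearest to IPT.

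Pseudogenes held 26.2%, 22.1%, 26.1% and 3.53% in NEG and 2.52%, 2.07%, 2.32% and 2.03% in IPT. The group means differed 8.70-fold (exact permutation test, adjusted p = 0.0374). Over all counts, where Gm19220 is included, pseudogenes held 2.48% ± 1.04 (SD, n = 4) of NEG and 2.998% ± 1.22 of IPT, with overlap (exact permutation test, adjusted p = 0.486). Outside the dominant features NEG 5 was above every IPT library but much nearer to IPT than to the other NEG libraries, so the 8.70-fold difference describes NEG 1, 3 and 4. Features without a RefSeq match, most of them unnamed gene models, held 8.86%, 8.68%, 9.92% and 5.72% against 4.80% to 5.35% (1.65-fold, exact permutation test, adjusted p = 0.0374).

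Small noncoding RNAs went the other way. They held 0.287%, 0.514%, 1.499% and 4.63% in NEG and 5.37% to 6.55% in IPT (exact permutation test, adjusted p = 0.0374). Long noncoding RNAs held 0.508%, 1.35%, 0.592% and 2.36% in NEG and 2.73%, 2.66%, 2.21% and 2.76% in IPT. Here NEG 5 overlapped IPT and the test did not pass (exact permutation test, p = 0.0571, adjusted p = 0.0694). Over all counts, which include the dominant AY036118 and Gm15564, they were 2.07-fold higher in NEG (exact permutation test, adjusted p = 0.0374).

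The number of different features was also lower in NEG. At a common depth of 31318 counts outside the dominant features, the expected number detected was 2164, 3877, 3282 and 6409 in NEG and 7908, 7747, 7772 and 7715 in IPT. The groups did not overlap (exact permutation test, adjusted p = 0.0374). A NEG library was thus narrower than IPT by more than its depth, and NEG 5 was again the closest to IPT.

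**Figure D2:**
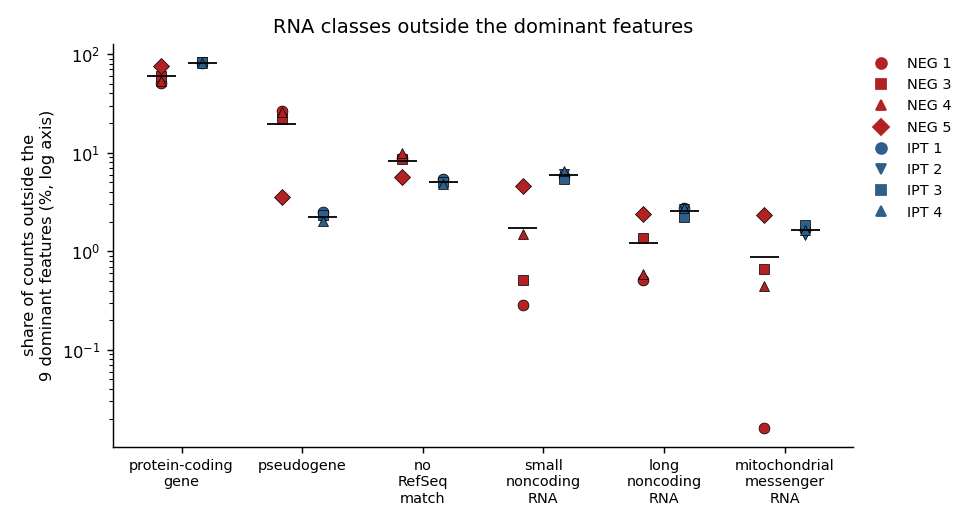
Share of counts outside the 9 dominant features, in percent on a log axis, for 6 RNA classes (points are single libraries, red for NEG and blue for IPT; black lines are group means, n = 4). The NEG 5 diamond sits nearest to IPT in the first 5 classes, and the pseudogene class is 8.70-fold larger in NEG by group means.

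Mitochondrial RNA was split by kind. The mitochondrion transcribes its own ribosomal RNAs, messenger RNAs and tRNAs from 1 small genome, and the messenger RNAs encode subunits of the respiratory chain. The ribosomal RNAs, mt-Rnr1 and mt-Rnr2, held 1.03%, 0.983%, 0.946% and 1.16% of all counts in NEG and 1.36%, 1.20%, 1.29% and 1.36% in IPT, a ratio of 0.791 (exact permutation test, adjusted p = 0.0374). The 13 messenger RNAs held 0.000309%, 0.0225%, 0.0102% and 0.0948% in NEG and 0.929% to 1.21% in IPT, a ratio of 0.0288 (exact permutation test, adjusted p = 0.0374). Ribosomal RNA of mitochondria was therefore nearly as large a part of a control library as of the input, while their messenger RNA was not.

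The ratio of mitochondrial ribosomal to messenger RNA counts was 3350.4, 43.6, 93.0 and 12.2 in NEG and 1.17, 1.29, 1.13 and 1.12 in IPT. Every NEG ratio lay above every IPT ratio. NEG 1 had 5 mitochondrial messenger RNA counts in all, so its ratio rests on those few. Within the counts outside the dominant features the messenger RNAs held 0.0160%, 0.667%, 0.442% and 2.35% in NEG and 1.63%, 1.47%, 1.84% and 1.65% in IPT, where NEG 5 was the highest of all 8 libraries and the groups overlapped (exact permutation test, adjusted p = 0.162). Mitochondrial tRNAs held up to 0.0331% there in NEG and 0.0232% to 0.0386% in IPT (exact permutation test, adjusted p = 0.364).

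The 2 mitochondrial ribosomal RNAs themselves were not recovered in the same proportion. mt-Rnr1, the small subunit RNA, had 3961, 2570, 2763 and 2894 counts in NEG and 6915, 5398, 5428 and 6741 in IPT. mt-Rnr2, the large subunit RNA, had 12791, 8857, 11463 and 11184 in NEG and 34922, 25639, 26632 and 34732 in IPT. The count of mt-Rnr1 per mt-Rnr2 was 0.310, 0.290, 0.241 and 0.259 in NEG and 0.198, 0.211, 0.204 and 0.194 in IPT, so every NEG library lay above every IPT library. The difference was not among the measures tested.

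Genes were then compared one at a time with edgeR's quasi-likelihood test, which asks whether a gene differs between the groups by more than the spread between libraries allows. TMM scaling sets libraries level on the bulk of their genes, and CPM below stands for counts scaled to the same TMM-adjusted library total. Of 10714 genes tested, 390 were higher in NEG (3.64%) and 3482 were lower (32.5%). The median log2 fold change over all tested genes was -1.74, and -0.95 when genes at 0 in a whole group were set at the floor of 3 counts. Scaled to total counts, where the dominant features weigh fully, the median was -5.92, 10423 genes were lower and 50 were higher. A gene called higher is therefore one that fell less than the rest or rose: of the 390, 199 were also positive under total counts, 50 passed there as higher and 159 passed there as lower. Single libraries bore on the lower count, which was 1792 without NEG 1 and 5447 without NEG 5.

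Groups did not overlap in CPM for 168 of the 390 higher and 3253 of the 3482 lower genes, where 1.74% of all tested genes were higher and 47.1% lower without overlap. Among the lower genes 1539 had no count in any NEG library, and for 1505 of these the IPT level exceeded what 3 counts over the group would allow. That floor left 161 of them at least 4-fold lower, and it covers counting error only.

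By class, 123 of 299 tested pseudogenes were higher (41.1%) and 24 were lower. Their median log2 fold change was 1.25, beside -1.74 over all genes. Of 9618 protein-coding genes 212 were higher (2.20%) and 3335 were lower (34.7%). Of 516 features with no RefSeq match 46 were higher (8.91%) and 82 lower (15.9%). Of 218 long noncoding RNAs 5 were higher (2.29%) and 28 lower (12.8%). Over all tested genes 3.64% were higher and 32.5% lower, so long noncoding RNAs were called lower less often than genes at large. Their median with genes at 0 set at the floor was -0.006, beside -0.95 over all genes. Protein-coding genes called higher had a median genomic span of 12535 bp, those called lower 27253 bp and all tested 23862.5 bp, as a description.

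**Figure D3:**
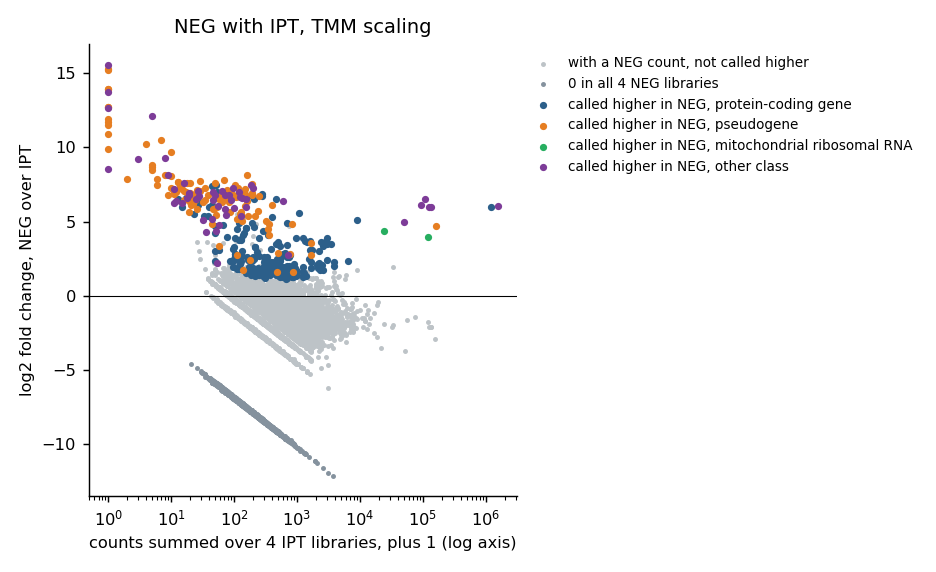
Log2 fold change of NEG over IPT under TMM scaling, against the IPT counts of the gene plus 1 on a log axis (each point is 1 of 10714 tested genes; colours mark genes called higher, by class). The dark grey band holds 2986 genes with no NEG count, whose fitted values are no measure of size, and pseudogenes in orange make up 31.5% of the genes called higher.

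The largest changes among named genes included an epidermal keratin and a calcium-binding protein. Krt17, a keratin of stressed and basal epithelium at chr11:100256215-100261029, had 35, 46, 89 and 2 counts in NEG and 46, 0, 4 and 1 in IPT. Its mean CPM was 260 ± 253 (SD, n = 4) for NEG and 1.41 ± 2.37 for IPT. The log2 fold change was 7.44 (SE 2.0) with an edgeR adjusted p of 0.0194. IPT 1 held nearly all IPT counts of the gene, and under total counts it did not pass (2.78, edgeR adjusted p = 0.115). S100a6, a small calcium-binding protein at chr3:90612894-90614414, had 215, 215, 407 and 16 counts in NEG and 311, 19, 63 and 78 in IPT (6.54, SE 1.34, edgeR adjusted p = 0.00325; 1.90 under total counts, edgeR adjusted p = 0.0842). NEG 5 was the lowest NEG library and IPT 1 the highest IPT library for both.

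Other genes had similar raw counts across the NEG libraries, although in CPM NEG 3 stood apart for C2cd4c (gap 0.849 of the range). EU599041, a protein-coding gene on chromosome 7, had 32, 40, 42 and 26 counts in NEG and 18, 9, 19 and 8 in IPT (6.78, SE 0.65, edgeR adjusted p = 1.6e-06; 2.38 under total counts, edgeR adjusted p = 2.1e-05). The X-linked Map7d2, whose product binds microtubules, had 9, 11, 14 and 10 counts in NEG and 2, 7, 4 and 13 in IPT, and its call held under total counts (6.15, SE 0.53, edgeR adjusted p = 4.3e-07; 1.77 and 0.00348). C2cd4c on chromosome 10 had 114, 106, 74 and 115 counts in NEG and 56, 48, 206 and 96 in IPT (5.29, SE 0.91, edgeR adjusted p = 0.00134; 1.00 under total counts, edgeR adjusted p = 0.0932). These NEG libraries thus held as many reads of such genes as IPT libraries with far more counts outside the dominant features.

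Pip5k1a, which makes the membrane lipid PIP2, had 415, 482, 229 and 29 counts in NEG and 353, 140, 330 and 238 in IPT (5.59, SE 1.08, edgeR adjusted p = 0.00234; 1.14 under total counts, edgeR adjusted p = 0.139). Olfr907, an odorant receptor gene, Sfrp1, a secreted antagonist of Wnt signalling, the noncoding AW822252 and Tubb3, a neuronal tubulin, completed the named genes, with log2 fold changes of 6.64, 6.60, 6.42 and 6.09. Of these Tubb3 did not pass under total counts (1.64, edgeR adjusted p = 0.0675). Tmsb10, an actin-binding peptide chosen after its values were seen, had 159, 183, 247 and 3 counts in NEG and 155, 12, 74 and 35 in IPT (6.70, edgeR adjusted p = 0.00419, but 0.106 under total counts).

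Pseudogenes and unnamed models gave the largest contrasts, several with no read in any IPT library. Gm3379, a pseudogene at chr12:109894390-109895132, had 19, 12, 25 and 10 counts in NEG and none in IPT. Under TMM scaling it was at least 906-fold higher against a floor of 3 counts over the IPT group (edgeR adjusted p = 4.3e-07). Gm42845 had 30, 33, 50 and 3 counts and likewise none in IPT (at least 1592-fold, edgeR adjusted p = 0.00776). Rpl36a-ps3, a ribosomal protein pseudogene inside the span of the noncoding gene Gm44140 on chromosome 6, had 28, 31, 14 and 3 counts and none in IPT (at least 1043-fold, edgeR adjusted p = 0.0129). All of these kept some reads in NEG 5. Their folds hold under TMM scaling only and would be far smaller against total counts. Gm29013 was the exception to the order of libraries, with 24, 106, 149 and 254 counts in NEG, highest in NEG 5, and 0, 0, 4 and 0 in IPT (edgeR adjusted p = 0.000434).

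Other pseudogenes and unnamed models had many counts in NEG 1, 3 and 4 and none in NEG 5. Those given here were chosen after their values were seen. Gm48690 had 278, 291 and 317 counts in those libraries, none in NEG 5 and none in IPT (edgeR adjusted p = 0.029), a call that was lost without NEG 1, 3 or 4 in turn (edgeR adjusted p = 0.0733, 0.0535 and 0.061). Gm7206 at chr14:45713346-45713826 had 262, 219 and 243, with none in NEG 5 and none in IPT (edgeR adjusted p = 0.0111). Rpl19-ps1 at chr1:85012086-85012787 had 209, 83 and 392, again with 0 in NEG 5 and all of IPT (edgeR adjusted p = 0.00558). Gm17511 had 214, 242, 420 and 0 counts in NEG and 116, 0, 40 and 1 in IPT. For 30.0% of the 390 higher genes, and 48.8% of the 123 higher pseudogenes, NEG 5 held no count.

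Genes at the other end were well measured in IPT and had no read in NEG. Rpl13 of the large ribosomal subunit had 1237, 727, 688 and 1157 counts in IPT and 0 in each NEG library, at least 30.8-fold lower when the NEG libraries together are given a floor of 3 counts (edgeR adjusted p = 0.000509). mt-Nd3, a subunit of respiratory complex I, was at least 25.2-fold lower (edgeR adjusted p = 0.00119). The histone H4 genes Hist1h4n and Hist1h4k were at least 16.8-fold and 15.7-fold lower. Nme2, a nucleoside diphosphate kinase, Capza1, which caps actin filaments, Nup188 of the nuclear pore, and Htt, huntingtin, were at least 11.4-fold, 10.99-fold, 10.9-fold and 10.5-fold lower (edgeR adjusted p = 0.00134, 0.000718, 0.000856 and 0.000741). Against total counts Rpl13 was at least 623-fold lower.

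Among genes of the cytosolic ribosome, members differed sharply. Of 82 tested ribosomal protein genes 13 were higher (15.9%, beside 3.64% of all tested genes) and 27 lower (32.9%, beside 32.5%). Their median log2 fold change was -1.32 (-5.53 under total counts) beside -1.74 over all genes (-5.92). With genes at 0 set at the floor it was -1.11, beside -0.95 over all genes. Together the ribosomal protein genes held 5.94%, 5.76%, 7.44% and 2.28% of the counts outside the dominant features in NEG and 2.33% to 2.96% in IPT. Rps19 of the small subunit, chosen after its values were seen, had 242, 302, 352 and 27 counts in NEG and 1075, 561, 612 and 701 in IPT (3.89, SE 0.95, edgeR adjusted p = 0.00653), with the direction reversed under total counts (-0.66). Rps13, chosen likewise, had 142, 118, 155 and 7 against 135, 180, 48 and 323 (4.88, SE 0.98, edgeR adjusted p = 0.00303, but 0.31 and 0.654 under total counts). Rpl9 and Rpl17 of the large subunit had no count in NEG, at least 21.3-fold and 15.4-fold lower (edgeR adjusted p = 0.000504 and 0.00265).

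Their pseudogenes were called higher more often than lower. Of 43 tested ribosomal protein pseudogenes 23 were higher (53.5%, beside 3.64% of all tested genes) and 3 lower (6.98%, beside 32.5%). Their median log2 fold change was 4.08, and -0.38 under total counts beside -5.92 over all genes. They held 6.06%, 4.64%, 5.14% and 0.589% of the remaining counts in NEG and 0.194% to 0.381% in IPT. The ratio of pseudogene to gene counts was 1.02, 0.805, 0.691 and 0.258 in NEG and 0.128, 0.101, 0.113 and 0.0803 in IPT. NEG 1 thus held as many counts at the copies as at the genes. Rps27a-ps2 had 186, 170, 143 and 6 counts in NEG and 390, 128, 172 and 135 in IPT (4.81, SE 1.04, edgeR adjusted p = 0.0041, but 0.30 and 0.681 under total counts). Rps16-ps2 had none in NEG and 235, 133, 189 and 218 in IPT (at least 6.27-fold lower, edgeR adjusted p = 0.00171), as did Rps16 itself. Reads of a gene and its copies can be shared out between them by the quantification, so single members are uncertain.

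Of 32 other named pseudogenes tested, 4 were higher (12.5%, beside 3.64% of all tested genes) and 3 lower (9.38%, beside 32.5%). Their median was -1.36, or -0.08 with genes at 0 set at the floor, beside -0.95 over all genes. Pdcd5-ps had 30, 48, 44 and 2 counts in NEG and 23, 16, 47 and 37 in IPT (5.50, edgeR adjusted p = 0.00199). Eif4a-ps4 had none in NEG and 337 to 415 in IPT (at least 12.4-fold lower, edgeR adjusted p = 0.000745).

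Eef1a1, the elongation factor that carries aminoacyl-tRNA to the ribosome, had 879, 812, 932 and 220 counts in NEG and 8517, 7580, 7457 and 10512 in IPT, and it did not pass (1.91, SE 0.77, edgeR adjusted p = 0.0552). It passed as higher in several alternatives, among them without NEG 1 or NEG 5 (edgeR adjusted p = 0.0313 and 0.00353), while under total counts it was lower (-2.59, edgeR adjusted p = 0.00616). Of 57 tested translation factor genes 5 were higher and 13 lower (median -1.01). Eif3m of initiation factor eIF3 had 21, 35, 29 and 9 counts against 193, 106, 121 and 178 (2.85, SE 0.52, edgeR adjusted p = 0.00171) and was lower under total counts (-1.62). Eif3f of the same complex was higher by 2.60 (edgeR adjusted p = 0.00326) and also lower under total counts (-1.87).

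Mitochondrial genes were mixed. Of the 13 mitochondrially encoded messenger RNAs 2 were lower (15.4%, below the 32.5% of all tested genes), mt-Nd3 and mt-Nd4l, both at 0 in NEG. None was higher (median -0.96, beside -0.95 over all genes with genes at 0 set at the floor). The other members followed the library. mt-Co1, a catalytic subunit of cytochrome oxidase, had 0, 59, 69 and 329 counts in NEG and 10939 to 16455 in IPT (-1.65, edgeR adjusted p = 0.182). mt-Atp6 of the ATP synthase, chosen after its values were seen, had 0, 2, 1 and 225 in NEG and 2432 to 3625 in IPT (-0.66, edgeR adjusted p = 0.653). Without NEG 5 both were lower (-2.69 and -6.11, edgeR adjusted p = 0.0344 and 0.000131). Both mitochondrial ribosomal RNAs were higher under TMM, mt-Rnr1 by 4.38 (SE 0.88, edgeR adjusted p = 0.00301) and mt-Rnr2 by 3.95 (SE 0.69, edgeR adjusted p = 0.00146), and stood at 0.01 and -0.44 under total counts, neither passing there. Of 8 tested mitochondrial tRNAs 2 were lower (25%, also below the 32.5% of all tested genes), mt-Ty and mt-Ts1, both at 0 in NEG. Neither passed without NEG 1 (edgeR adjusted p = 0.0727 and 0.0754).

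For the respiratory chain and ATP synthase subunits encoded in the nucleus, 6 of 88 tested genes were higher and 25 lower (median -1.20). Ndufab1, the mitochondrial acyl carrier protein, had 40, 45, 38 and 9 counts in NEG and 106, 78, 56 and 106 in IPT (4.11, SE 0.63, edgeR adjusted p = 0.000551; -0.36 under total counts). Cyc1, cytochrome c1, had 4 counts in NEG, all in NEG 5, and 285 to 492 in IPT (-3.23, SE 0.72, edgeR adjusted p = 0.0044). Of 77 mitochondrial ribosomal protein genes 2 were higher and 24 lower (median -1.36), with Mrpl21 higher by 2.42 (edgeR adjusted p = 0.00147; -1.96 under total counts) and Mrpl18 at least 5.76-fold lower.

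Of 37 proteasome genes 3 were higher and 10 lower (median -0.81). The share lower was 22.8% for translation factors, 28.4% for the nuclear respiratory genes, 31.2% for mitochondrial ribosomal proteins and 27% for the proteasome, all below the 32.5% of all tested genes. The share higher was 8.77%, 6.82%, 2.60% and 8.11% in the same order, beside 3.64% of all tested genes. The core subunits Psma7 and Psma6 were higher by 2.73 and 2.49 (edgeR adjusted p = 0.00347 and 0.00267) and lower under total counts (-1.78 and -1.96), while Psmb3 was at 0 in NEG (at least 6.02-fold lower).

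Nuclear and small noncoding RNAs had few counts in NEG and fewest in NEG 1. Rn7sk, the 7SK RNA that holds back transcription elongation, had 0, 66, 99 and 782 counts in NEG and 36332, 26940, 20607 and 39492 in IPT (-1.80, SE 1.06, edgeR adjusted p = 0.167). Rn7s1, a 7SL RNA gene of the signal recognition particle with the same values as its copy Rn7s2, had 21, 45, 164 and 586 counts in NEG and 25207 to 44712 in IPT (-2.09, edgeR adjusted p = 0.0648). In both, NEG 5 was the highest NEG library, and without it both were lower (-3.45 and -3.12, edgeR adjusted p = 0.0166 and 0.00623). Under total counts both were lower and passed (-5.85 and -6.23, edgeR adjusted p = 0.000533 and 6.1e-05). Of the 8 tested RNAs of this list 1 was lower under TMM (12.5%, below the 32.5% of all tested genes), and none was higher. It was Rmrp, the RNA of RNase MRP, with 0, 6, 11 and 51 counts in NEG and 3105 to 5906 in IPT (-2.81, SE 0.94, edgeR adjusted p = 0.0271). Its call was lost without IPT 2 or 4 or without NEG 3 or 4, with edgeR adjusted p between 0.054 and 0.0716.

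No spliceosomal U RNA had a count in NEG, although all 16 in the file had one in IPT. Their IPT counts were few, 153 to 216 in all. Of the 2 tested 1 was lower (50%), Rnu2-10 (at least 1.56-fold lower, edgeR adjusted p = 0.0171, but 0.051 without NEG 1). Of 6 snoRNAs and scaRNAs tested 3 were lower (50%), Scarna13, Scarna2 and Scarna10, and none was higher. Over all tested genes 32.5% were lower, and lists this small give only coarse shares. For Scarna10 the call was lost without NEG 1 (edgeR adjusted p = 0.0572).

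The nuclear long noncoding RNA Malat1, chosen after its values were seen, had 8, 223, 39 and 417 counts in NEG and 12401 to 26864 in IPT (-1.45, edgeR adjusted p = 0.19). Neat1, the RNA of paraspeckles, had 0, 7, 5 and 38 counts and 3166 to 9072 in IPT (-3.49, SE 0.97, edgeR adjusted p = 0.012). Of 21 tested nuclear noncoding RNAs and snoRNA hosts 4 were lower (19.0%, below the 32.5% of all tested genes), and none was higher. The 4 were Neat1 and the hosts Snhg1, Snhg6 and Snhg17. The median of the list was -1.42, or -0.99 with genes at 0 set at the floor, beside -0.95 over all genes.

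Replication-dependent histone genes, whose messenger RNAs end without a poly(A) tail, were lower in 35 of 60 tested (58.3%, beside 32.5% of all tested genes), and none was higher. Their median was -2.38, or -1.77 with genes at 0 set at the floor beside -0.95 over all genes. They held 0.0479%, 0.140%, 0.219% and 0.597% of the remaining counts in NEG and 0.863% to 0.990% in IPT. Near-identical histone copies share reads, so the list says more than a member does. Of 249 tested zinc finger genes named Zfp, which have low counts, 63 were lower (25.3%, below the 32.5% of all tested genes) and none was higher, and 106 had no NEG count (median -2.23, or -0.40 with the floor).

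Of 15 glycolytic enzymes 3 were lower (20%, below the 32.5% of all tested genes), Hk2, Pfkl and Ldha (-2.67, -2.58 and -2.18, edgeR adjusted p = 0.00583, 0.00892 and 0.0373), and none was higher. For Ldha the call was lost without any 1 of the IPT libraries or NEG 1, 3 or 4 (edgeR adjusted p between 0.051 and 0.0855). The cytoskeletal and metabolic reference genes Actb (-1.91, edgeR adjusted p = 0.083) and Gapdh (-1.39, edgeR adjusted p = 0.228) did not pass. Both were lower without NEG 5 (edgeR adjusted p = 0.00232 and 0.0109) and under total counts (-5.98 and -5.41, edgeR adjusted p = 2.4e-05 and 9.6e-05), and Actb also passed with DESeq2 and limma voom (adjusted p = 0.0216 and 0.0223).

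Leydig and steroidogenic markers were present in IPT. All 15 in the file had a count there, among them Cyp11a1, which starts steroid synthesis (238, 886, 584 and 1296), and Nr5a1, the transcription factor of steroidogenic cells (1627, 1510, 1097 and 2143). Hsd17b3, which makes testosterone, had 2 counts in all of IPT. In NEG the list held 2, 14, 13 and 114 counts. Of 14 tested 5 were lower (35.7%, near the 32.5% of all tested genes), namely Tspo, Fdxr, Scarb1, Star and Fdx1, and none was higher. Their median was -1.63, beside -1.74 over all genes. No tested marker was at 0 throughout NEG, so the median with genes at 0 set at the floor was also -1.63, beside -0.95 over all genes. The call of Scarb1, the lipoprotein receptor that brings in cholesterol, was lost without NEG 1, 4 or 5 (edgeR adjusted p between 0.0534 and 0.0927). Star, which brings cholesterol into mitochondria, had 0, 0, 0 and 7 counts in NEG and 266, 187, 419 and 552 in IPT (-2.36, SE 0.79, edgeR adjusted p = 0.0277), a call lost without NEG 1, 3 or 4 or IPT 3 or 4 (edgeR adjusted p between 0.0548 and 0.0946). Fdxr, which passes electrons to steroidogenic enzymes, had 4 counts, all in NEG 5 (-3.12, SE 0.72, edgeR adjusted p = 0.00518). Both groups are RNA of the same cell line, purified before the pull-down, so these values compare the makeup of libraries and not of cells.

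Of 20 cholesterol synthesis genes 5 were lower (25.0%, below the 32.5% of all tested genes), among them Sqle (-3.15, edgeR adjusted p = 0.0079), and none was higher. No member was at 0 throughout NEG, and the median was -1.68, beside -0.95 over all genes with genes at 0 set at the floor. Of the genes reported as dAKAP1 ligands or partner, Larp4, Star and Atp5j2 were lower in NEG (Larp4 -2.22, edgeR adjusted p = 0.0217, or 0.0827 with NEG and IPT fitted alone, and Atp5j2 -1.87, edgeR adjusted p = 0.0409, the latter lost without NEG 1, 3 or 4 or IPT 2, 3 or 4). Sod2, at -1.44, lay near the threshold (edgeR adjusted p = 0.056). It passed as lower without IPT 1 or NEG 5 (edgeR adjusted p = 0.0458 and 0.0318), with no filter (0.0423), with DESeq2 size factors (0.0443), with DESeq2 itself (0.0261) and under total counts (9.1e-09). Akap1 had 0, 2, 10 and 6 counts in NEG and 251 to 352 in IPT, and it did not pass (-0.66, edgeR adjusted p = 0.359) but was lower under total counts (-5.04, edgeR adjusted p = 1.7e-07).

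Markers of other cells were also read. Epithelial and keratinocyte markers had counts in NEG for 10 of the 24 in the file, 71, 92, 135 and 9 in all, against 350, 213, 252 and 285 in IPT. They made 0.227%, 0.234%, 0.390% and 0.0183% of the remaining counts in NEG and 0.0127% to 0.0163% in IPT. These shares rest on a few members: Krt17 and Krt14 had 172 and 57 of the NEG counts, and Dsc3 had 640 of the IPT counts. Of 7 tested 3 were higher (42.9%, beside 3.64% of all tested genes), the keratins Krt14, Krt17 and Krt7. Lower was 1 (14.3%, beside 32.5%), Dsc3, whose call was lost without NEG 1, 3 or 4 or IPT 2 or 3 (edgeR adjusted p between 0.0532 and 0.109). Krt14 had 17, 26, 14 and 0 counts in NEG and 11, 0, 2 and 0 in IPT (7.52, edgeR adjusted p = 0.0128; 0.089 under total counts). Krt5, which pairs with Krt14 in basal epidermis and was chosen after its values were seen, had 4, 3, 4 and 0 against 10, 0, 2 and 0. Epcam had no count in NEG and 29, 4, 13 and 18 in IPT. Trp63, Krt16 and Krt19 had none in either group, and Cdh1 and Krt8, also at 0 in NEG, had 1 and 2 counts in all of IPT, too few to read a difference from. The part of other cells in these values was not tested.

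Among endothelial markers Pecam1, an adhesion receptor, had 35, 24, 20 and 5 counts in NEG and 38, 25, 23 and 32 in IPT (4.92, SE 0.52, edgeR adjusted p = 3.9e-06, but 0.50 and 0.26 under total counts), whereas Cdh5, the cadherin of the same cells, had 0, 2, 2 and 2 against 57 to 232 and did not pass (-1.10, edgeR adjusted p = 0.218). Of 5 tested Sertoli cell markers 1 was lower (20%, below the 32.5% of all tested genes), Clu (-3.14, edgeR adjusted p = 0.00607). No macrophage or blood marker was tested, the 2 in the file being at 0 in NEG. Ddx4, the single germ cell marker tested, did not pass, and Ckm, a muscle enzyme, was lower (at least 1.40-fold), a call lost without NEG 1 (edgeR adjusted p = 0.0641).

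**Figure D4:**
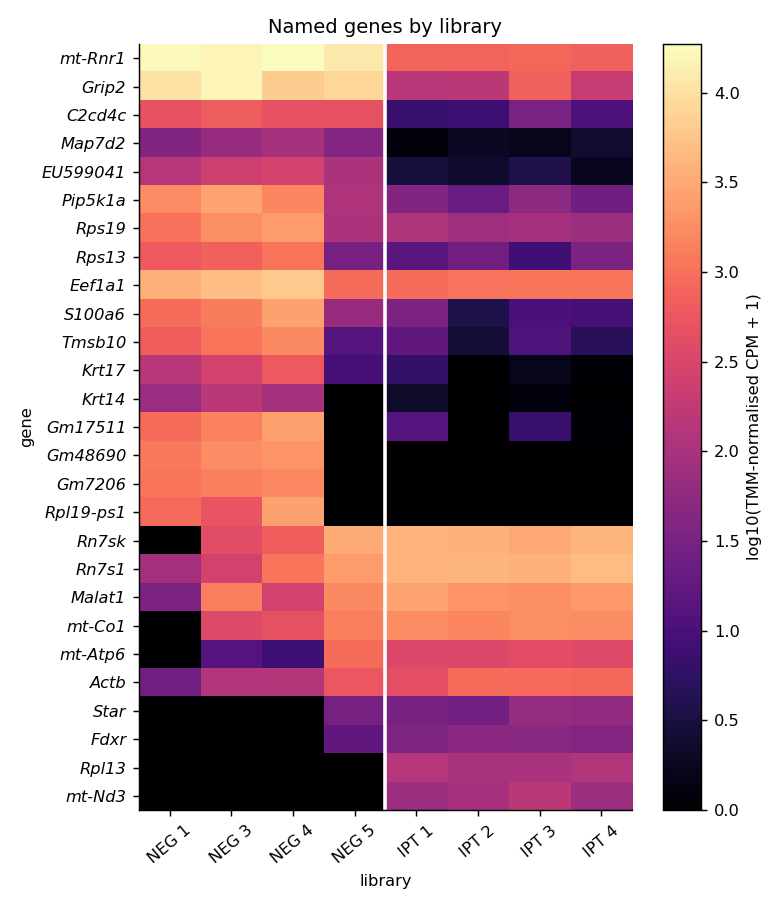
Level of 27 genes in each NEG and IPT library, as log10 of TMM-scaled CPM plus 1 (rows are genes, columns libraries; the white line parts NEG from IPT; black is 0). NEG 1, 3 and 4 share bright rows from Pip5k1a to Rpl19-ps1, and in NEG 5 those rows are dim or black while Rn7sk, Rn7s1, Malat1 and mt-Atp6 are bright.

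The 4 control libraries were not alike outside the dominant features. NEG 1, 3 and 4 resembled each other, and NEG 5 resembled the input. Over 488 features with at least 40 pooled NEG counts, Spearman's rho was 0.70 between NEG 1 and NEG 3, 0.72 between NEG 1 and NEG 4, and 0.73 between NEG 3 and NEG 4. NEG 5 correlated with them at -0.43, -0.17 and -0.25, and with the pooled IPT counts at 0.85. NEG 1, 3 and 4 correlated with pooled IPT at -0.47, -0.20 and -0.27. The IPT libraries correlated with each other at 0.93 to 0.98. These are descriptions across features of the same libraries, which share depth and gene length, and the features were chosen by NEG counts. A feature could enter through NEG 1, 3 and 4 or through NEG 5. That choice alone can push values between NEG 1, 3 and 4 and the libraries like NEG 5 below 0, so no meaning is read from the negative signs.

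Concentration differed as well. In NEG 1, 3 and 4 the 52, 111 and 79 most abundant remaining features held 50% of the remaining counts, whereas NEG 5 needed 590 and IPT needed 952 to 1027. Outside the dominant features NEG 1, 3, 4 and 5 had 2164, 4073, 3346 and 7038 features with a count. Of all these, 753 features were detected in all 4 libraries and 5188 in 1 alone. NEG 5 alone detected 3421, or 48.6% of its features, NEG 3 846, NEG 4 553 and NEG 1 368.

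The genes called higher in NEG were mostly those of NEG 1, 3 and 4. They held 69.7%, 55.4% and 61.7% of the remaining counts there, 15.2% in NEG 5, and 2.23% to 2.88% in IPT, leaving out dominant features. NEG 5 was the lowest NEG library in 84.6% of these 390 genes and in 4.87% of all tested genes. The test calls a gene from all 4 libraries, so these shares describe the calls and do not test them. Without NEG 5, 378 of the 390 higher and 3121 of the 3482 lower genes remained called.

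NEG 5 nevertheless kept reads of many of them. It lay above every IPT library in CPM for 196 of the 390, where NEG 1, 3 and 4 did so for 370, 378 and 376. For pseudogenes it did so in 50 of 123, against 119, 121 and 120. Over all 10714 tested genes NEG 5 lay above every IPT library in 2488, against 648, 1370 and 1166 for NEG 1, 3 and 4. Features at 0 in all IPT libraries held 8.02%, 5.84%, 7.97% and 0.707% of the remaining counts of NEG 1, 3, 4 and 5.

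NEG 1 was the extreme at the other end. It had the fewest features, the highest share of mt-Rnr1 among the remaining counts (12.6%, against 5.90% to 7.98% in the other NEG libraries, with mt-Rnr2 left out as dominant), and the least messenger RNA of mitochondria. It had no count at all for Rn7sk, mt-Co1, Neat1 and Rmrp, all of which had counts in the other 3 NEG libraries. Among the IPT libraries, IPT 1 was the highest in 68.3% of the 123 higher pseudogenes, against 34.8% of all tested genes, and IPT 2 was the lowest in 43.9%, against 23.9%. For the 212 higher protein-coding genes IPT 1 was the highest in 34.9%, about as often as over all tested genes. Which bait each library had is not known, so the differences among NEG libraries and the kind of bait cannot be told apart.

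**Figure D5:**
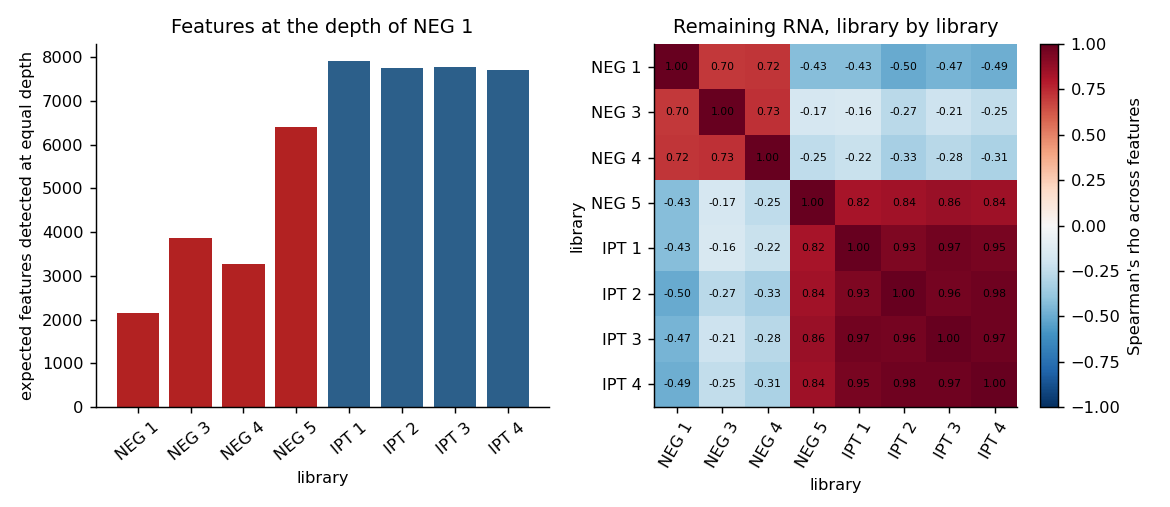
Left, expected number of features with a count when each library is brought to 31318 counts outside the dominant features (bars start at 0; red NEG, blue IPT). Right, Spearman's rho across 488 features for each pair of libraries. NEG 5 reaches 6409 features where NEG 1 reaches 2164, and it correlates with the IPT libraries at 0.82 to 0.86 while NEG 1, 3 and 4 correlate with them below 0. The features were chosen by pooled NEG counts, which can itself give negative values here.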

How the data were processed

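RNA sequencing libraries of NEG and IPT were compared from the estimated counts per gene that the authors deposited. The tools kallisto and DESeq2 and the builds GRCm38 and mm10 are named, per the submitters' processing notes. The step from transcripts to genes is not stated in the sources used. Every deposited value was already a whole number, so none was rounded. Values of 2 outnumbered values of 1 in every library, so if both mates of a pair were counted, the floors given are too low.

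RNA classes were RefSeq GRCm38.p6 biotypes matched by symbol (21057 of 27071 features), and coordinates and microRNA sequences came from the same tables. Genes were tested with edgeR 4.0.16 in R 4.3.3 (quasi-likelihood, TMM, filterByExpr, 3 groups in 1 fit) with Benjamini-Hochberg adjustment and a threshold of 0.05. The fit was tested on simulated data: 19% of 100 genes changed 4-fold, and 2% of 100 changed 2-fold, were called among 10714, so a gene that was not called may still differ. Floors of 3 counts cover counting error only.

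The members and the 28 gene lists were chosen with earlier results of these data known. Genes were named by rule: among called genes averaging 5 CPM or more and without overlap, the 15 largest and 10 smallest changes of named genes and the 6 largest of pseudogenes and unnamed models; up to 3 members of each list by p; all dominant features; the 3 most abundant others in each NEG library; and the dAKAP1 genes Akap1, Larp4, Star, Sod2 and Atp5j2 with Gapdh and Actb. Malat1, Gm48690, Gm7206, Gm17511, Tmsb10, Rps13, Rps19, Rpl19-ps1, Rpl19-ps11, mt-Atp6 and Krt5 were added after their values were seen. Alternatives were another scaling (DESeq2 size factors, total counts, counts outside the dominant features), DESeq2 1.42.0, limma 3.58.1 voom, halved values, other filters, NEG and IPT alone, a replicate block, other thresholds for dominant features and each library left out. Results for 2 of the genes so named are not reported here.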

Additional observations from a re-analysis of the deposited data

Results flagged for a closer look

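In groups of 4 libraries, 33 of 224 gene groups and 1 of 44 groups of library measures had 1 library far from the other 3, measured as the gap to the nearest library over the whole range and past Dixon's critical value. The critical value is set for 5% of groups by chance when values are normally spread. Many gene groups here hold zeros and few counts, where 1 library with a count gives the largest gap possible. The 5% is therefore no measure of how many gene groups chance would flag.

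Among the library measures it was the number of features holding 50% of the remaining counts, where NEG 5 stood apart from the other NEG libraries (gap 0.890 of the range).

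NEG 5 was the single NEG library with a count, so that the gap was 1 of the range, for Scarna2, Cyc1, Zfp451, Star, Atp5j2, Sqle, Lss, Tspo, Fdxr and Dsc3. These counts were few, from 2 for Tspo and Zfp451 to 7 for Star, Atp5j2 and Sqle. NEG 5 was also apart for mt-Atp6 (0.987, the highest), Rpl38-ps2 (0.836, the highest) and Pecam1 (0.886, the lowest). NEG 3 was the single NEG library with a count of Scarb1 (1), was the highest for Rpl19-ps11 (0.903) and stood apart for C2cd4c (0.849). No gene had NEG 1 or NEG 4 apart in this way.

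Among the IPT libraries, IPT 1 stood apart for Krt17 (0.878), Mir99ahg (0.838), Psmb3 (0.864), Atp5j2 (0.905), Ddx4 (0.875) and Actb (0.882), and was the single IPT library with a count of Gm43712 and Rpl38-ps2 (1 each). IPT 3 stood apart for C2cd4c (0.835), for Gm26822 (0.892), Gm19220 (0.881) and Grip2 (0.890), for mt-Ta (0.892) and Ndufab1 (0.898), and was the single one with a count of Gm29013 (1). IPT 2 stood apart for Tubb3 (0.863) and Scarna10 (0.877).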

How the results depend on the processing

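The 390 higher genes became 987 with no filter and 50 under total counts, and ranged from 310 to 512 with 1 library left out. The 3482 lower genes became 2046 with NEG and IPT fitted alone, 1901 with halved values, 1188 at a mean of at least 10 CPM and 10423 under total counts, and ranged from 1792 without NEG 1 to 5447 without NEG 5. The direction reversed under total counts for mt-Rnr2 (-0.44), Eif3m (-1.62), Eif3f (-1.87), Ndufab1 (-0.36), Mrpl21 (-1.96), Psma6 (-1.96), Psma7 (-1.78), Eef1a1 (-2.59) and Rps19 (-0.66), since that scaling counts the dominant features in full. With no filter CT010467.1, Lars2, Gm15564, AA474408, Mir6236, AY036118, Gm19220, Gm26822, mt-Rnr1 and mt-Rnr2 were no longer called, and the cause was not tested.

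Leaving out 1 library leaves 3 against 4, where the exact permutation test cannot go below 0.0571, so no class share can pass. The difference of NEG minus IPT in percentage points then ranged, over all counts, from -31.7 to -29.3 for protein-coding genes, -0.992 to 0.0738 for pseudogenes, 3.92 to 4.51 for long noncoding, -2.24 to -1.78 for small noncoding RNAs and 28.6 to 31.2 for features with no match. For mitochondrial messenger, ribosomal and transfer RNA it ranged from -1.14 to -1.04, -0.313 to -0.244 and -0.0194 to -0.0167. Outside the dominant features the ranges were -27.2 to -19.2 (protein-coding), 14.98 to 22.5 (pseudogene), -1.77 to -1.15 (long noncoding), -5.17 to -3.72 (small noncoding), 2.72 to 4.12 (no match), 6.48 to 8.73 (mitochondrial ribosomal), -1.27 to -0.492 (mitochondrial messenger, -0.777 with all libraries) and -0.0157 to -0.00468 (mitochondrial transfer, -0.0106 with all libraries). Features at equal depth differed by -4678 to -3263. Pseudogenes over all counts reversed, to 0.0738, without IPT 3. Long noncoding RNAs outside the dominant features passed with dominant features from 1% (-1.73, adjusted p = 0.0347, exact permutation test). Mitochondrial ribosomal RNA outside them could not be given from 0.1%, where mt-Rnr1 is itself dominant.

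With the replicate block 439 genes were higher and 5022 lower, with 368 and 2886 of the calls kept. Same-numbered libraries correlated at 0.22, 0.03 and -0.11 over 2009 genes. Differently numbered libraries ranged from -0.39 (NEG 5 with IPT 1) to 0.39 (NEG 5 with IPT 2). These values therefore cannot decide whether same-numbered libraries are paired, and NEG 5 has no IPT library of its number. Depth limits NEG: 2986 of the tested genes have no NEG count.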
